A study of Mus musculus with 2 samples.

Results

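Small nucleolar RNAs (snoRNAs) and small Cajal body RNAs (scaRNAs) with reads were described in nucleoplasmic RNA of mouse macrophages. The set held 41 of the 1558 gene models that the GENCODE M21 annotation types as snoRNA or scaRNA. The members were selected on the expected count, the number of fragments the authors' software assigned to a model, which had to average 10 or more over both libraries. Of the 41, 35 are typed snoRNA (of 1507 such models) and 6 scaRNA (of 51). The same minimum was met by 26.1% of all 55536 annotated genes. Because the mean count chose the members, their counts and levels are given as a description.

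The cells were macrophages grown from bone marrow of C57BL/6J mice and exposed to Lipid A, the part of lipopolysaccharide that TLR4 recognises, at 100 ng/ml for 40 min. Total RNA of the nucleoplasmic fraction was sequenced after ribosomal RNA depletion. The 2 libraries are biological replicates 2 and 1 of this 1 group and carry the same donor identifier, so their spread may hold less than the spread between animals. Replicate 2 started from 500 ng and replicate 1 from 1 µg of RNA, and the effects of input and of replicate cannot be told apart. Unstimulated cells were not analysed here, and every value is a level, not a response. A difference between the libraries is 1 library against 1 and has no test.

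Most vertebrate snoRNAs lie in introns of other genes and are trimmed from the excised intron by exonucleases, while proteins bound to the mature RNA protect its ends. Box C/D RNAs carry a C box near the 5′ end and a D box near the 3′ end and guide 2′-O-methylation. Box H/ACA RNAs end shortly after the letters ACA and guide pseudouridylation. scaRNAs of both kinds gather in Cajal bodies and act on spliceosomal snRNAs, and a few snoRNAs, U3 among them, are needed for cleavage of the ribosomal RNA precursor.

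The sequences below are the GENCODE M21 transcripts, 5′ to 3′, of selected members. The first set holds Gm22009, which carries most counts, and 3 scaRNA-typed models that share a host or are well known. Capitals mark the first TGATGA (C box), the last CTGA (D box) or the terminal ACA (box H/ACA). Gm22009 lies at chr3:69085105-69085447 (minus strand, mm10), in an intron of Kpna4, and only its first and last 60 bases are shown because its boxes lie there. Scarna6 (chr1:87784556-87784820, plus strand) and Gm25395 (chr1:87776938-87777209, plus strand) lie in different introns of Atg16l1. They are identical over the first 12 and the last 8 bases, which hold both boxes, and 60.4% identical over their whole length. Scarna13 (chr12:105031075-105031349, minus strand) lies in an intron of Snhg10.
Gm22009, bases 1 to 60: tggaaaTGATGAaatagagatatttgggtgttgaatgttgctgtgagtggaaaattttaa
Gm22009, bases 284 to 343: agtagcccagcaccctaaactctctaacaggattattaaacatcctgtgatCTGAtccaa
Scarna6: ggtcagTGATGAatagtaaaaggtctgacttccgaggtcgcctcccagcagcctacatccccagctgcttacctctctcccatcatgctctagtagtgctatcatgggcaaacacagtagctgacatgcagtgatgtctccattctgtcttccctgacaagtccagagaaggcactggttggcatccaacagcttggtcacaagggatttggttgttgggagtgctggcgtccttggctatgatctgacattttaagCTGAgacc
Gm25395: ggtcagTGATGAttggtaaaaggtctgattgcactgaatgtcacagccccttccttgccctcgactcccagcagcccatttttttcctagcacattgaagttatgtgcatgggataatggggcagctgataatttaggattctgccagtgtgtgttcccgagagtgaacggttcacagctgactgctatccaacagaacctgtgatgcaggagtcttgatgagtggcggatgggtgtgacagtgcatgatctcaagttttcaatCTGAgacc
Scarna13: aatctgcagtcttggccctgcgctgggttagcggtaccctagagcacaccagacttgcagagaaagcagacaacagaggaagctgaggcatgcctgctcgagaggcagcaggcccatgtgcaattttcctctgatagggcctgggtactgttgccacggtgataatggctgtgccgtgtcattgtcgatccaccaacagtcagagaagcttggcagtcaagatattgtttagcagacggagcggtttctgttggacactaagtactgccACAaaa

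The next set holds models that are similar to each other in sequence, which bears on how reads could be assigned between them. The Rnu3b models lie in a single intron of Tex14, and the copy shown is at chr11:87443237-87443452 (plus strand). Rnu3a, at chr10:40258467-40258680 (plus strand), lies in no annotated gene. Snora73b (chr4:132352322-132352526) and Snora73a (chr4:132352775-132352979) lie on the minus strand in Rcc1 and Snhg3 and are 96.6% identical. Gm26448 (chr9:120129351-120129553, plus strand, in Rpsa) is 88.2% identical to Snora73a. Gm22988 (chr11:69669635-69669778, minus strand, in Eif4a1) and Gm25291 (chr11:51737779-51737922, minus strand, in Sec24a) are 97.2% identical.
Rnu3b1, 216 nt: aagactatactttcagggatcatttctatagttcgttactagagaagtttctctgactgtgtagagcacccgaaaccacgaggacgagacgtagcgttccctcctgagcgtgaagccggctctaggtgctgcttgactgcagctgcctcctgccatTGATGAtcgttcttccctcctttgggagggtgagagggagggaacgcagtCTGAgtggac
Rnu3a, 214 nt: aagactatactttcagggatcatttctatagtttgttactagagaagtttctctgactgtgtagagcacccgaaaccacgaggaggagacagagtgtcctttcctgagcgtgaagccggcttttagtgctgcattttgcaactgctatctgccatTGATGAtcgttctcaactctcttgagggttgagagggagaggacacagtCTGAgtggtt
Snora73b: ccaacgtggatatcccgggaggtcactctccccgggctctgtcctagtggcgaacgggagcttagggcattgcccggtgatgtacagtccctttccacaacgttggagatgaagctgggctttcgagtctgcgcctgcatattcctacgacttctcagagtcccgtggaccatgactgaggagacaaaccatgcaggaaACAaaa
Snora73a: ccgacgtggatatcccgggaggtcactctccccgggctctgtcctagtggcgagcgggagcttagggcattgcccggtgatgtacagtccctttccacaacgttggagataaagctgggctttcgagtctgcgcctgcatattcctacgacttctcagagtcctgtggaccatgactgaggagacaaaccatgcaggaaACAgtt
Gm26448: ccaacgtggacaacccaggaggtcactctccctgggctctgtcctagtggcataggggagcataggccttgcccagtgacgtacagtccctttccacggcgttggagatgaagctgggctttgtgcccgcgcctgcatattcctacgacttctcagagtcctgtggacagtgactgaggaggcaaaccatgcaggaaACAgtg
Gm22988: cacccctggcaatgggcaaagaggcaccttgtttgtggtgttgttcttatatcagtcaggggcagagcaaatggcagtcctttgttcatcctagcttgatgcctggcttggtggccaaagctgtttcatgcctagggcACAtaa
Gm25291: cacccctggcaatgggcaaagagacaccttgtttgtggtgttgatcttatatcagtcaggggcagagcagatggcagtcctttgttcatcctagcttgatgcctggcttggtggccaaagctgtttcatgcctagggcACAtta

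The last set holds short members with a large difference between the libraries. Snord22 lies in Snhg1 (chr19:8725866-8725991, plus strand), and Snord15a (chr7:99482785-99482932) and Snord15b (chr7:99479563-99479707), both on the minus strand, lie in Rps3. Gm26447 lies in Eif4a2 (chr16:23111301-23111429, plus strand). Snord22 holds CTGA near its end, but not the letters TGATGA.
Snord22: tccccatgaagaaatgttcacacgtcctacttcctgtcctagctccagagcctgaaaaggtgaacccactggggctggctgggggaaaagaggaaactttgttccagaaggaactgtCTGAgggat
Snord15a: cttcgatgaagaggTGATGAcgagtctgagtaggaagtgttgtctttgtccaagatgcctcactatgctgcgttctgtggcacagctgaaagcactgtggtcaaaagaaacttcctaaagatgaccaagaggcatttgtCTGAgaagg
Snord15b: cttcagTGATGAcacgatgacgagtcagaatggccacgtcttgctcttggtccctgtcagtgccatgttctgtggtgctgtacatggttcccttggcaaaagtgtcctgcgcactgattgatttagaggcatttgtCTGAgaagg
Gm26447: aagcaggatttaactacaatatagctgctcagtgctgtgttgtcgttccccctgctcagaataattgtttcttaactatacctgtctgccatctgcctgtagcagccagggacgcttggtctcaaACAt

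Replicate 2 held 18434601 expected counts in all, against 19630046 for replicate 1. All 8 macrophage markers examined exceeded 1 TPM (the authors' transcript level, scaled to the same total in each library), with a median of 174 TPM. Of 13 markers of other blood and stromal cells, 2 had a mean of 1 TPM or more (Cd4 with 19.2 and S100a9 with 1.11 TPM), and 6 were listed at 0. The nuclear RNA Malat1 averaged 24466 ± 3364 TPM (SD, n = 2). The members took 0.183% of the counts in replicate 2, against 0.174% in replicate 1, with a mean of 0.179 ± 0.006% (SD, n = 2). Without Gm22009 the other 40 members took 0.063% in replicate 2, against 0.0977% in replicate 1, and the totals were less alike. In bulk RNA, less RNA per cell and fewer cells that hold it cannot be told apart. Gm22009 held 65.6% of the members' counts in replicate 2, against 44.0% in replicate 1, and the 5 highest members held 91.8% and 77.5%.

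scaRNAs led the set by counts. The 6 models typed scaRNA and Scarna10, which is typed snoRNA but named as a scaRNA, had 0.170% of all counts in replicate 2, against 0.138% in replicate 1. Gm22009 had 22071 counts in replicate 2, against 14956 in replicate 1. The annotation gives it no other name and no target is assigned to it here. Scarna10 guides modification of U5 snRNA in human cells and had 3823 counts in replicate 2, against 5373 in replicate 1. Scarna2, a guide for U2 snRNA in human cells that lies in no annotated gene, had 3569 and 4089 counts. These 3 models stood apart from the rest in both libraries, by counts and per kilobase of model. By mean TPM the order differed, with the snoRNA models Gm22988, Gm26447 and Snord22 above Gm22009. With counts scaled to the library total (CPM) and divided by model length, Gm22009 stood at 2867 ± 892, Scarna10 at 744 ± 147 and Scarna2 at 488 ± 26.9 CPM per kilobase (SD, n = 2). The ranges of Scarna10 and Scarna2 did not overlap, at 639 and 848 against 469 and 507 in replicates 2 and 1.

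The Atg16l1 pair was unequal in the same way in both libraries. Gm25395 had 814 counts in replicate 2, against 1060 in replicate 1. Scarna6, downstream in the same host, had 294 and 428. Per kilobase, Gm25395 stood at 181 ± 26.3 and Scarna6 at 71.6 ± 15.9 CPM (SD, n = 2), with no overlap. Atg16l1, an autophagy gene, had 11.8 CPM per kilobase. Scarna13, also known as U93, had 620 counts in replicate 2, against 890 in replicate 1, while its host Snhg10 had 0 and 1. Gm26083, in Snhg20, was the lowest of the scaRNA models with 11.35 and 67.9 counts. The other 6 had over 250 counts in each library.

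U3, the box C/D RNA needed for early cleavage of the ribosomal RNA precursor, was the clearest case of reads divided among copies. It is annotated as 10 models: each of Rnu3a and Rnu3b1 to Rnu3b4 has a longer and a shorter model that differ by the last base, and the 4 longer Rnu3b models are identical in sequence. Each 216-nt Rnu3b model had 56.8 counts in replicate 2, against 167 in replicate 1. Each 215-nt Rnu3b model had 68.7 and 7.47. These opposite directions concern models that differ by a single 3′ base. The 214-nt Rnu3a model had 0 counts in replicate 2, against 194 in replicate 1. With 3 counts set as the limit for 0, this is at least 60.6-fold lower, taking the division of reads between models as given. The 213-nt Rnu3a model had 44 and 30.5. Summed over all 10 models, U3 had 546 counts in replicate 2, against 922 in replicate 1, with a log2 ratio of -0.66. Summed over Rnu3b the ratio was -0.37 (502 and 697 counts), and over Rnu3a it was -2.21 (44 and 225 counts). In the authors' second quantification, made directly from the FASTQ files, the shorter models were at 0 in both libraries and U3 summed to 1465 and 2018 estimated counts, a ratio of -0.80. There the 214-nt Rnu3a model had 218 and 509 estimated counts, a log2 ratio of -1.55 that falls short of the bound above. Differences between single U3 models therefore were not read as differences between RNAs.

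Among the other members known by name, 2 RNAs that act in rRNA processing, U17 and U22, were far lower in replicate 2. Snora73b and Snora73a (U17), which act in ribosomal RNA precursor cleavage, had 30.1 and 27.5 counts in replicate 2, against 524 and 457 in replicate 1. Their log2 ratios were -3.94 and -3.89. Gm26448, the similar model in Rpsa, had 15 and 139 counts (-2.96). Summed, these 3 models had 72.6 counts in replicate 2, against 1120 in replicate 1, with a ratio of -3.81, and -3.02 in the FASTQ-derived counts (191 and 1242). Both Snora73 models overlap an exon of a gene on the opposite strand, and the authors' strand setting is not given in the sources used here. Snord22 (U22), needed for 18S rRNA maturation in frog oocytes, had 16.9 counts in replicate 2, against 347 in replicate 1 (-4.11). The FASTQ-derived counts of Snord22 were 45.7 and 459.

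Box C/D members outside U3 and Snord22 were 3. Snord17, in an intron of Snx5, had 142 counts in replicate 2, against 412 in replicate 1 (-1.43). The Rps3 introns hold Snord15a, with 30 and 176 counts (-2.38), and Snord15b, with 23.8 and 189 (-2.78). Snord15a and Snord15b (U15) guide methylation of 28S rRNA, and neither was separable from the other in level: 36.0 ± 35.3 and 37.8 ± 40.8 CPM per kilobase (SD, n = 2). RefSeq also places Snord94, a guide for U6 snRNA, at the unnamed model Gm22486 in Ptcd3, with 4 counts in replicate 2, against 63 in replicate 1 (-3.36).

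Besides the Snora73 models, the box H/ACA members with a Snora name were Snora74a (U19), with 98.6 and 297 counts in replicates 2 and 1, Snora81 with 8.66 and 36.1, Snora68 with 0.86 and 37.6, and Snora23 with 2 and 19. These are known from human cells as guides for pseudouridylation of rRNA. The log2 ratio of Snora74a was -1.47. The last 3 were under 10 counts in replicate 2, so they entered the set through replicate 1 and had to be lower in replicate 2. The FASTQ-derived counts of Snora23 were 42 and 57, a ratio of -0.75. In all, 7 members were under 10 counts in replicate 2, 4 (the 215-nt Rnu3b models) were under 10 in replicate 1, and 30 had 10 or more in each.

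**Figure D1:**
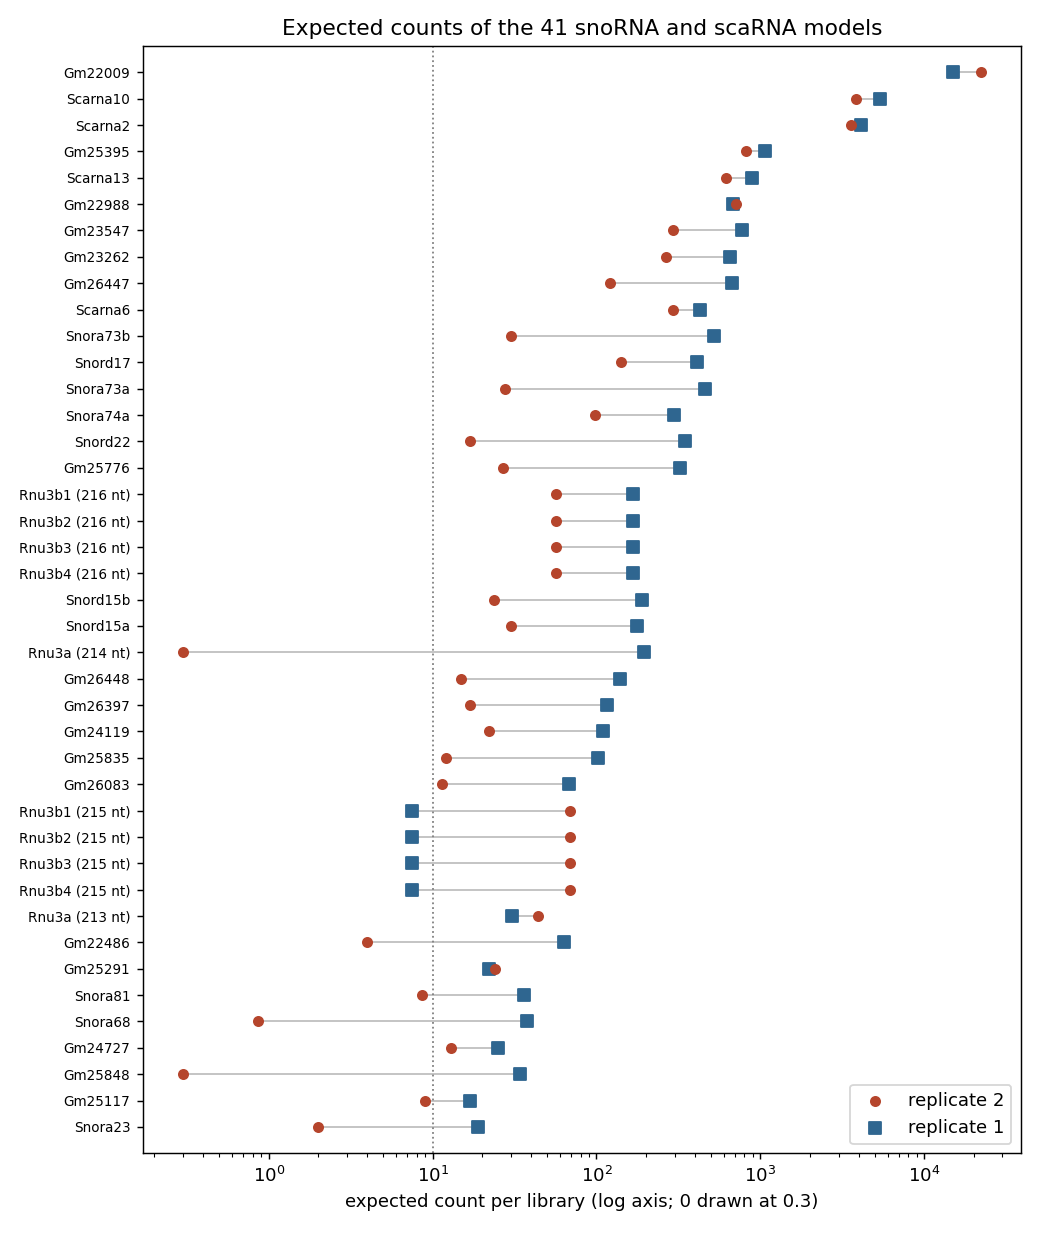
Expected counts of the 41 members in replicate 2 (circles) and replicate 1 (squares) on a log axis, in order of the mean count, with a dotted line at 10 counts. Gm22009 reaches 22071 and 14956 counts, and below Scarna6 most circles lie well left of their squares, apart from the shorter U3 models and the 144-nt models Gm25291, Gm24727 and Gm25117.

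The 14 unnamed snoRNA models ranged from 129 to 271 nt. The highest by mean count was Gm22988, with 712 counts in replicate 2 against 680.4 in replicate 1 (a log2 ratio of 0.16). It heads a family of 4 members of 144 nt, whose others are 91.7% to 97.2% identical to it and lie in other host genes. Gm25291 in Sec24a had 24 and 22 counts, Gm24727 in Gsr 13 and 25, and Gm25117 in Nap1l1 9 and 17. Gm22988 also has 14 similar models outside the set, all at 0 counts, and lies wholly within a retained-intron transcript of Eif4a1 with 2020 counts in replicate 2, against 2270 in replicate 1. How reads were shared between that transcript and Gm22988 cannot be told from the tables. Summed, the family had 758 and 744 counts, a ratio of 0.12, and it was the family under 250 nt that was not lower in replicate 2.

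Other unnamed members differed more. Gm23547 in Phb2 had 293 counts in replicate 2, against 777 in replicate 1 (-1.30), Gm23262 in Eif4g2 had 264 and 648 (-1.19), and Gm26447 in Eif4a2 had 121 and 674 (-2.36). Gm25776 in Gtf2a1 had 27 and 325 (-3.40), and Gm25848 in Fbxo45, 89.5% identical to it, had 0 and 34, at least 10.6-fold lower, so that it entered the set through replicate 1. Its FASTQ-derived counts were 17 and 57, a log2 ratio of -1.95 that falls short of that bound. Gm26397 in Tomm20 had 17 and 116 (-2.54), and Gm24119 in Slc25a3 had 22 and 110 (-2.13). Gm25835, another model in Eif4a1, had 12 and 102 counts (-2.80). It has the same length and host as Gm22988 but stood at 4.53 and 36.3 CPM per kilobase in replicates 2 and 1, while Gm22988 stood at 269 and 242. In the FASTQ-derived counts the contrast was smaller, with 166 and 218 for Gm25835 (-0.72) and 923 and 673 for Gm22988 (0.12).

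Across all 41 members, 33 were lower in replicate 2 and 26 of them by 2-fold or more, while 4 were higher by 2-fold or more. The median log2 ratio was -1.42. Over all 14515 genes with a mean count of 10 or more, 50.5% were lower, 3.21% were lower by 2-fold or more and 1.75% were higher by 2-fold or more, and the median was -0.004. The same counts chose the members, and copies share reads, so these counts are a description. The 4 higher models were the 215-nt Rnu3b models. The 95% counting interval of the ratio lay wholly below 0 for 31 members, wholly above 0 for 6 (Gm22009, Gm22988 and the 215-nt Rnu3b models) and held 0 for 4. Such intervals cover counting error only. PCR copies of a molecule were not marked, and the division of reads among similar models is not covered. The 215-nt Rnu3b models had 0 FASTQ-derived counts in both libraries. Grouping models that are at least 85% identical or overlap in position gave 26 families. Of these, 24 were lower in replicate 2, 18 by 2-fold or more, with a median of -1.92. None was higher by 2-fold or more, and the 2 that were not lower were Gm22009 and the Gm22988 family. Among the 30 members with 10 or more counts in each library, 26 were lower and 20 were lower by 2-fold or more.

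The ratio went with length. The 7 members of 250 nt or more were Gm22009, Scarna10, Scarna2, Gm25395, Scarna13, Gm23547 and Scarna6. Their median ratio was -0.39, and only Gm23547 was lower by 2-fold. The 24 members under 250 nt outside U3 had a median of -2.37, with 22 lower and 20 of them by 2-fold or more. The members under 10 counts in replicate 2 were all under 250 nt. They entered the set through replicate 1 and had to be lower, so the selection itself bears on the relation with length. Across the 26 families Spearman's rho between length and ratio was 0.74, and across the 41 members it was 0.52, as descriptions over models that share both libraries. Other properties of the libraries moved with this. Length minus effective length, which stands for the mean fragment, was 230.2 nt for replicate 2, against 206.0 nt for replicate 1. The effective length of a 205-nt model was accordingly 18.2 in replicate 2, against 28.8 in replicate 1. RNA input also differed, as given above. With TPM, which divides by effective length, the median ratio was -1.36 over the 36 members with a TPM above 0 in both libraries. Of these 36, 20 were lower by 2-fold or more. The members left out were at 0 TPM in replicate 2. TPM ratios were not scaled between the libraries as the counts were, and no share over all genes is set beside them. They are therefore not on one scale with the count ratios. The part of fragment length and RNA input in the result was not tested otherwise.

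**Figure D2:**
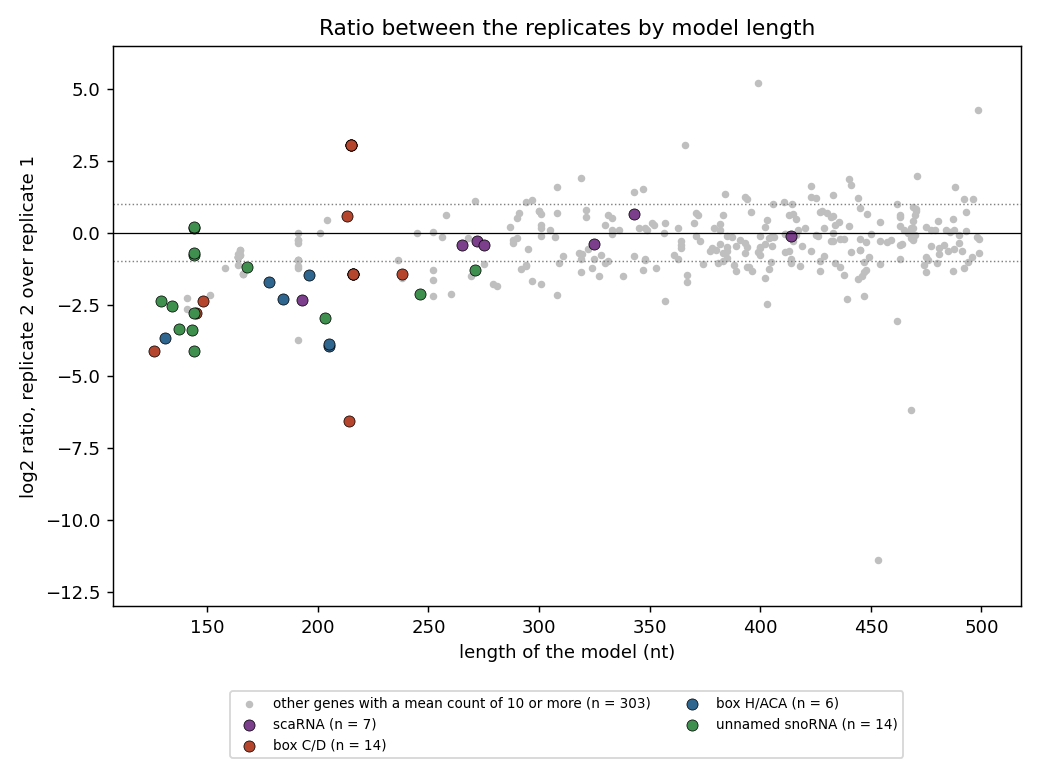
Log2 ratio of replicate 2 over replicate 1 against model length for the members (coloured by class) and for 303 other genes under 500 nt with a mean count of 10 or more (grey), with dotted lines at 2-fold. Members of 250 nt or more lie near 0 (median -0.39), most shorter ones lie below -1, and the 215-nt Rnu3b models (drawn on top of each other) lie at 3.07.

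Other short RNAs were set beside the members. Of 36 other genes of 120 to under 250 nt, 35 were lower in replicate 2 and 12 by 2-fold or more, with a median of -0.83. Spliceosomal snRNA models made up 30 of these, and all 30 were lower (Gm25939 at -0.001). Many snRNA models are copies with equal counts, such as Rnu1a1 (U1 snRNA), with 800.5 counts in replicate 2, against 1524 in replicate 1. Longer genes were mixed. Of 70 other genes of 250 to under 350 nt, 21 were lower by 2-fold or more, with a median of -0.21, and of 197 from 350 to under 500 nt, 38 were. Gm25265 and Gm26415, typed misc_RNA, had ratios of -1.30 (25 and 69 counts) and -1.26 (20 and 54 counts). In the other direction, Rpph1, the RNA of RNase P, had a ratio of 1.91 (323271 and 92143 counts), Rmrp 1.09 and Rn7sk, the 7SK RNA, 0.62. Being lower in replicate 2 was thus shared with other genes under 250 nt that were mostly snRNA models, 28 of them among 29 genes of 150 to under 200 nt. The 5 other genes of 200 to under 250 nt had a median of -0.02, and 1 was lower by 2-fold or more. The 15 members of that length, with the 10 U3 models among them, had a median of -1.42, and 10 were lower by 2-fold or more. The difference between the groups was not tested.

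Most snoRNA models had no alignment-based expected counts. Such counts above 0 were found for 115 of the 1558 models. A count of 0 here does not show that reads were absent. Gm24339 and Snora31, both at 0 here, had 319 and 188 FASTQ-derived counts in replicate 2, against 425 and 136 in replicate 1. All 592 models under 120 nt had an effective length of 0 in both libraries. Members had a median length of 205 nt (126 to 414), against 127 nt (35 to 381) for the other 1517 models. The share of models in the set was 0% of 592 under 120 nt, 1.55% of 901 from 120 to under 150 nt, 19.2% of 26 from 150 to under 200 nt, 53.6% of 28 from 200 to under 250 nt and 66.7% of 9 from 250 to under 350 nt. The effective length was 0 for 1200 models in replicate 2, against 656 in replicate 1, and a model with an effective length of 0 gets no TPM. Gm26447, Snord22 and Snora68 were at effective length 0 in replicate 2 and are therefore listed at 0 TPM there, although they had counts. At the other end, Gm22988 had the highest mean TPM of the set, 9728 ± 3210, with an effective length of 2.07 in replicate 2, against 4.24 in replicate 1. Gm22009 was at 5757 ± 1138 TPM (SD, n = 2). TPM of the members summed to 2.76% of the library in replicate 2, against 6.96% in replicate 1. Because of these lengths, levels of the members are mainly compared here per kilobase of the model, and TPM is given beside this where the reading differs.

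**Figure D3:**
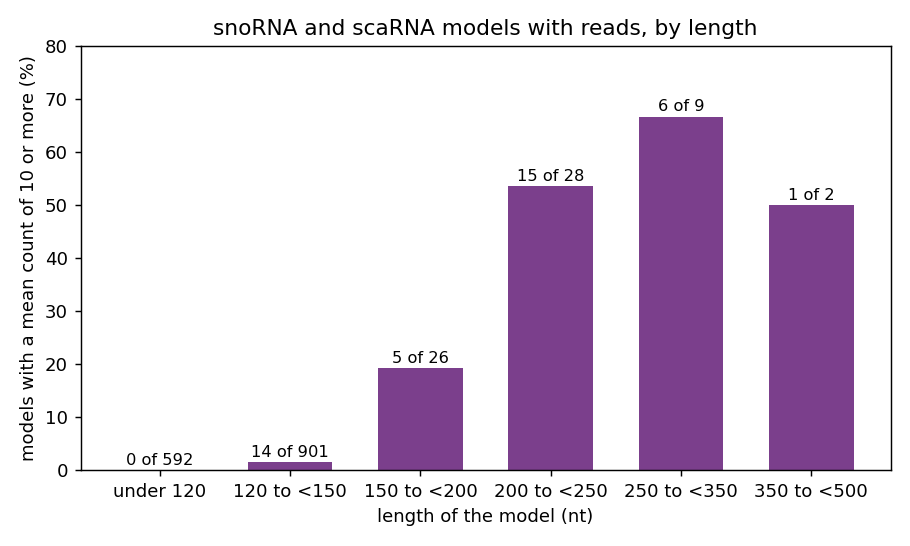
Share of annotated snoRNA and scaRNA models with a mean expected count of 10 or more, by model length in nt, with members and models written above each bar. The share is 0% below 120 nt and 53.6% from 200 to under 250 nt.

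The selection minimum fell within a gradual decline of counts. The members just inside it were Gm24727 (13 and 25 counts in replicates 2 and 1), Gm25848 (0 and 34), Gm25117 (9 and 17) and Snora23 (2 and 19). Just outside lay Gm26079 (3.98 and 16), Gm23119 (3 and 16), Gm22442 (5 and 13) and a snoRNA-typed model named Mir1949 (0 and 17.7).

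A list of 39 well-known symbols gave the same picture by length. Of these, 29 were found in the annotation under that symbol, 12 belonged to the set and 16 of the other 17 were at 0 counts in both libraries. A symbol not found may still be annotated under another name. The 16 at 0 included Snord118 (U8, 135 nt), Snord13 (U13, 104 nt), the U14 models and the Rpl13a snoRNAs, and the longest of them was Snora62 (149 nt). The FASTQ-derived counts gave Snord118 49 in replicate 2, against 29 in replicate 1, so the alignment-based 0 does not hold in both quantifications. Terc, the telomerase RNA, which ends like a box H/ACA RNA, had 24 and 41 counts and is not typed as a snoRNA.

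Sequence features were described on the strand of the transcript, with each motif searched on its own. TGATGA was in 22 members (53.7%), against 26.5% of all 1558 models. CTGA in the last 20 bases was in 22 members (53.7% against 34.8%), and both together were in 21 (51.2% against 23.0%). ACA in the last 6 bases was in 18 members (43.9% against 46.5%). All 14 named box C/D members had CTGA near the end, and Snord22 was the only one of them without TGATGA. Of the 6 Snora members 5 had the terminal ACA, Snora81 being the exception. Of the 7 scaRNA members 5 had both C/D letters, and Scarna13 and Gm26083 had the terminal ACA. Among the 14 unnamed models 11 had the terminal ACA and 3 had TGATGA with CTGA, and Gm23547 had all of them. The 10 U3 models weigh on these shares.

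Host genes differed less between the libraries than the members they hold. On the same strand, 38 members lay inside 26 distinct genes, 22 of them protein-coding. Among them were the translation initiation factor genes Eif4a1, Eif4a2 and Eif4g2 and the ribosomal protein genes Rps3 and Rpsa, which together held 8 members, a grouping made after the hosts were seen. None of the 26 hosts differed by 2-fold or more. Over all genes with a mean count of 10 or more, 3.21% were lower and 1.75% were higher by 2-fold or more. The 24 hosts with a mean count of 10 or more had a median ratio of 0.13 and the lowest was -0.38 (Kpna4). Of the 30 members with a host outside U3, 26 had a ratio below that of the host. Some of these members were under 10 counts in replicate 2, entered the set through replicate 1 and had to be lower. The hosts were not selected in this way, so the number is a description. Snord22 had -4.11 while Snhg1 had 0.12 (313 and 309 counts), and Gm22009 had 0.66 while Kpna4, a nuclear import receptor gene, had -0.38 (2839 and 3964 counts).

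**Figure D4:**
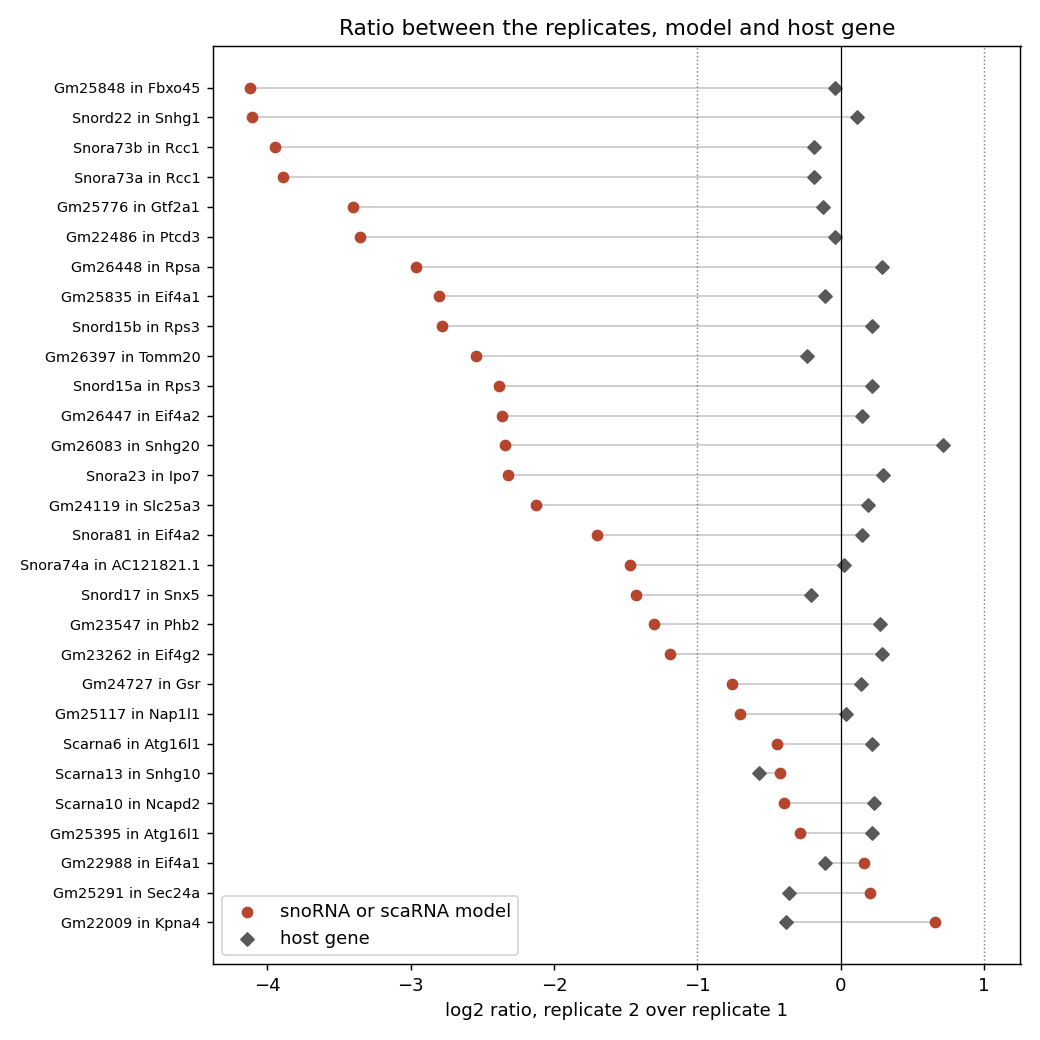
Log2 ratio of replicate 2 over replicate 1 for 29 members outside U3 (circles) and their host genes (diamonds), sorted by the member's ratio, with dotted lines at 2-fold. Every host drawn lies between the dotted lines, while Snord22 lies at -4.11. Gm25848, the lowest circle, is at 0 counts in replicate 2, so its position depends on the prior count and stands for the bound in the text.

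Within a host, 2 members mostly had similar ratios. The Atg16l1 pair had -0.28 (Gm25395) and -0.44 (Scarna6), the Rps3 pair -2.38 (Snord15a) and -2.78 (Snord15b), and the Rcc1 pair -3.94 (Snora73b) and -3.89 (Snora73a). The Eif4a2 pair had -2.36 (Gm26447) and -1.70 (Snora81). The Eif4a1 models, at 0.16 (Gm22988) and -2.80 (Gm25835), were the exception. Snora73a and Snora73b are 96.6% identical, so how reads were divided between them bears on their ratios. Snora81 was under 10 counts in replicate 2 and had to be lower. The Atg16l1 and Rps3 pairs are each close in length, as are the Eif4a1 models. The part of the host in these ratios was not tested.

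By the mean of both libraries, levels per length were above the host for 20 of the 30 members with a host outside U3. In replicate 2 alone this held for 12, against 23 in replicate 1, and 12 were above in both. Gm22009 stood at 2867 CPM per kilobase against 26.1 for Kpna4, and Scarna10 at 744 against 3.76 for Ncapd2, a condensin gene. Among the members below their host, Gm24119 stood at 13.9 against 206 for Slc25a3, Gm25835 at 20.4 against 228 for Eif4a1 and Snora81 at 6.52 against 87.5 for Eif4a2. These calls depend on dividing by the full model length, and TPM, which divides by effective length, can reverse them. By mean TPM, Gm25835 stood above Eif4a1 (660 against 208). Gm24119 (55.2 against 175) and Snora81 (72.4 against 78.7) stayed below their hosts. In all, 13 members overlap an exon of another transcript on their strand, mostly one with a retained intron. For Snord22 such Snhg1 transcripts had 219 counts in replicate 2, against 238 in replicate 1, and for Snora81 such Eif4a2 transcripts had 213 and 149. For Scarna10 they had 0 and 2.19, and Gm22009, Gm25395, Scarna6, Scarna13 and Scarna2 overlap no such exon. The 17 members outside U3 that lie in an intron and in no exon were a median of 1055 nt upstream of the next exon (74 to 4955).

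The FASTQ-derived table gave more reads to short models. In it 169 models averaged 10 or more estimated counts, of which 36 are members and 133 are not. Of those 133, 40 are under 120 nt. The members missing from it were the 5 shorter U3 models. Counts of the members correlated across models with a Spearman's rho of 0.64 in replicate 2, against 0.97 in replicate 1. The FASTQ-derived count was the higher one for 36 members in replicate 2, against 35 in replicate 1, although that table also has a higher total, 33536257 and 26929533. The direction between the libraries was shared and the size was smaller: 33 of 41 members were lower in replicate 2, 19 of them by 2-fold or more. Over the 14475 genes with a mean expected count of 10 or more and FASTQ-derived counts above 0, 54.5% were lower and 1.67% were lower by 2-fold or more. The median of the members was -0.85 over all 41, with the 5 models at 0 in both libraries counted as no difference, and -1.02 without them. Scarna10 had 6389 and 5639 estimated counts (-0.16), Snord17 360 and 516 (-0.85) and Snora81 29.8 and 59.9 (-1.27).

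**Figure D5:**
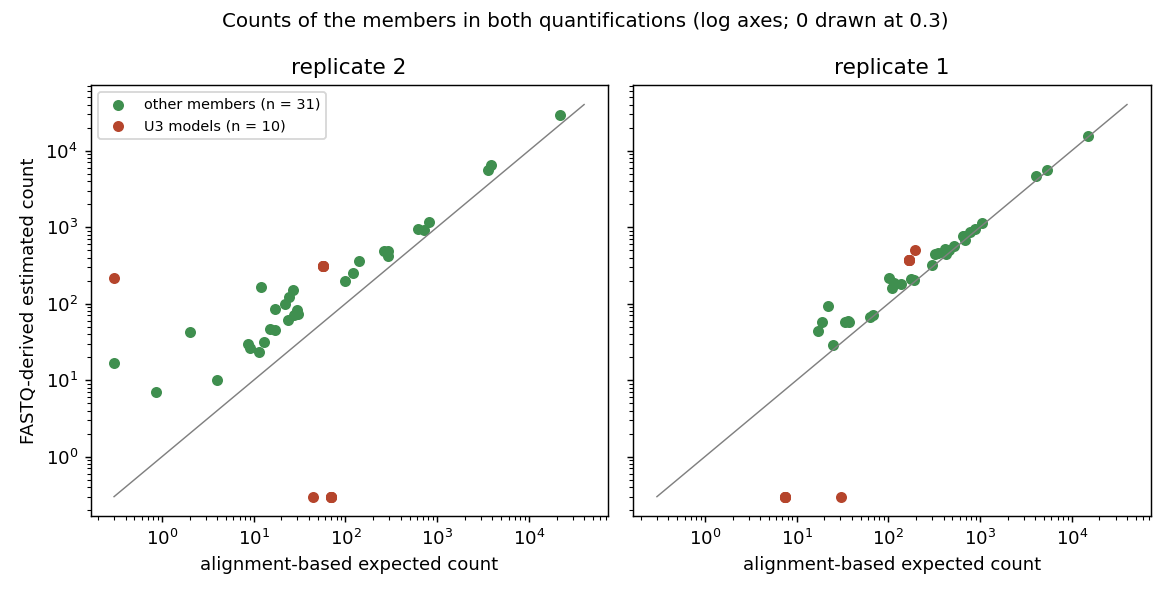
FASTQ-derived estimated count against alignment-based expected count for the 41 members, replicate 2 on the left and replicate 1 on the right, on log axes with a line of equality and 0 drawn at 0.3. In replicate 2 most members with under 100 alignment-based counts lie above the line, and the shorter U3 models lie at 0 on the vertical axis in both.

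Genes of the snoRNA machinery were present at low to moderate levels. The 4 box C/D core proteins had a median of 7.13 TPM, led by Nop56 with 14.8 ± 1.89, while Fbl, the methyltransferase fibrillarin, had 4.79 ± 2.71 and Snu13 4.85 ± 0.262 TPM (SD, n = 2), within each other's spread. The 4 box H/ACA core proteins had a median of 2.56 TPM, led by Nhp2 with 7.80 ± 3.84, while Dkc1, the pseudouridine synthase dyskerin, had 3.67 ± 1.25. The 10 assembly factors had a median of 1.20 TPM. Coil (coilin) and Wrap53, which brings scaRNAs to Cajal bodies, had 0.465 ± 0.134 and 0.64 ± 0.339 TPM. Of 18 processing and export symbols 17 were found, with a median of 3.66 TPM, led by the exporter Xpo1 with 31.9 ± 9.91 and the exonuclease Xrn2 with 22.6 ± 4.72. By the count ratio none of the genes in these lists with a mean count of 10 or more differed by 2-fold or more. The lowest were Gar1 (-0.91), Phax (-0.85) and Fbl (-0.71). Over all 14515 genes with that minimum, 3.21% were lower and 1.75% were higher by 2-fold or more, so none among so few genes is near the background. By TPM, 4 of 37 were lower by 2-fold or more in replicate 2: Fbl (2.87 TPM, against 6.70 in replicate 1), Nhp2 (5.09 against 10.5), Wrap53 (0.40 against 0.88) and Phax (0.89 against 2.19). No share over all genes was taken for TPM, so this number has no background. The median log2 count ratios were 0.32 for box C/D proteins, -0.39 for box H/ACA proteins and 0.02 for processing and export.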

How the data were processed

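Total RNA-seq libraries of 1 group (replicates 2 and 1) were described. Per the file headers, the authors' alignment-based tables give expected counts and TPM per gene and transcript, and their FASTQ-derived tables give estimated counts and TPM per transcript. The deposited TPM divide by effective length. The bounds of the TPM credibility interval, kept as a deposited score, were not compared. Per the labels, the build is mm10, and the annotation GENCODE M21 is named in the deposited notes. Which aligner, quantifier and strand setting were used is not given in the sources used here.

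Rows without an annotated gene (numeric identifiers, spike-ins and phiX) held 0.196% of counts in replicate 2 and 0.672% in replicate 1 and were left out of scaling. The members and gene lists were chosen with earlier results of these data known. The named members are the highest 15, every scaRNA, those around the minimum, those with extreme ratios, families and well-known snoRNAs.

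Counts were rounded, and the log2 ratio of replicate 2 over replicate 1 was taken from CPM in edgeR 4.0.16 (R 4.3.3) with a prior count of 2, after TMM scaling on the genes that averaged 10 or more counts. The calculation was tested on simulated data. Counting intervals at 95% were exact binomial. A count of 0 was set to 3 counts for a bound. CPM per kilobase used the total over annotated genes and the model length. Hosts and exons came from the GENCODE annotation (1 host gene is not reported here), RefSeq names from GRCm38.p6. With 2 libraries no test between them was possible. Alternatives were total scaling, DESeq2 1.42.0 size factors, another prior count, other minima, TPM and FASTQ-derived counts. Replicate 2 totalled 18434601 expected counts, against 19630046 for replicate 1, so models near the minimum rest on few counts.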

Additional observations from a re-analysis of the deposited data

How the results depend on the processing

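No paired analysis was possible because there is 1 group. The number of members was 41 with a minimum mean count of 10, 27 with a minimum of 50, and 169 by FASTQ-derived counts. It was 34 without replicate 1 and 42 without replicate 2, alternatives added after seeing the data. Without unnamed models 27 of the 41 remained. Their share of the library was 0.179% of expected counts, 4.86% of TPM, 0.144% of FASTQ-derived counts, 0.642% of FASTQ-derived TPM and 0.0804% of expected counts without Gm22009, the last chosen after seeing the data. It was 0.183% without replicate 1 and 0.174% without replicate 2.

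The median log2 ratio was below 0 under every alternative, from -2.13 without the U3 models (chosen after seeing the data) to -1.02 by FASTQ-derived counts over the 36 members above 0 there, or -0.85 over all 41. Total scaling, DESeq2 size factors, another prior count and other minima for the scaling gave 33 lower members and 26 lower by 2-fold or more. Leaving members out lowered these numbers: 21 and 15 without members in an exon on the same strand (28 members), 20 and 14 without those in an exon on either strand (27 members), and 21 and 16 without members under 150 nt (27 members, chosen after seeing the data). For single members, 21 of 36 ratios moved beyond their counting interval with FASTQ-derived counts and 5 of 36 with TPM, and none of those past 2-fold reversed. Depth limits members near 10 counts, whose intervals are wide.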

Other observations

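Models outside the set had reads in the FASTQ-derived tables. Gm23722 (130 nt) had 716 estimated counts in replicate 2 and 665 in replicate 1, against 2 and 1 alignment-based expected counts. Gm24339 (76 nt) had 319 and 425, and Snord89 (110 nt) had 133 and 208, while both were at 0 in the alignment-based tables. Snora31 (130 nt) had 188 and 136 estimated counts and was also at 0 there. Of the 133 such models, 79 were lower in replicate 2 by the FASTQ-derived ratio. By the same ratio 54.5% of 14475 genes were lower, as were 33 of the 36 members with FASTQ-derived counts above 0. The models outside the set were thus closer to all genes than to the members. The members' lower ratios therefore do not extend to snoRNA models in general. The difference between these shares was not tested.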
